A study of Mus musculus with 6 samples.

Results

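The troponin isoforms and the sarcomeric actins are the 10 genes Tnnt1, Tnnt2, Tnnt3, Tnni1, Tnni2, Tnni3, Tnnc1, Tnnc2, Acta1 and Actc1. They were picked by name, without use of their values, and all 10 of 10 were found among the 44556 gene symbols counted in each library. Bulk RNA-seq was carried out on the parietal bone of the calvaria of newborn C57BL/6 littermates, with 3 OsxCre libraries and 3 libraries labelled OsxCre;Stat3fl/fl. Both genotypes carried the OsxCre transgene, in which Cre recombinase is driven by Osx in osteoblast precursors, and muscle cells are not the stated target of the deletion. In the second genotype both Stat3 alleles were flanked by loxP sites. Stat3 itself lay between 135 and 155 CPM (counts scaled to a common library size with edgeR's TMM method) in the 6 libraries and was not lower in those labelled OsxCre;Stat3fl/fl, where its log2 fold change was 0.12 (SE 0.07, adjusted p = 0.442, edgeR's quasi-likelihood test) and turned to -0.26 with no scaling of the libraries. Its count includes exons outside the loxP sites, so it does not check the deletion, and the genotypes were taken from the labels. The study describes the mice as male, while Xist, which is made from an inactive X chromosome, lay between 881 and 1059 CPM in all 6 libraries.

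A striated muscle fibre contracts when calcium frees the thin filament for myosin. The thin filament is a polymer of actin that carries tropomyosin and the troponin complex. Troponin C binds calcium, troponin I holds actin and myosin apart at rest, and troponin T ties the complex to tropomyosin. Fast skeletal fibres use Tnnt3, Tnni2 and Tnnc2. Slow skeletal fibres use Tnnt1, Tnni1 and Tnnc1, and Tnnc1 also serves the heart. Tnnt2 and Tnni3 are the cardiac isoforms, and Tnnt2 is also made in immature skeletal muscle. Acta1 is the actin of mature skeletal muscle, while Actc1 is the actin of the heart and of developing skeletal muscle. These genes mark muscle and not bone, and muscle adjoins the calvaria.

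The 10 genes lie on 5 chromosomes of GRCm38, in the positions of the RefSeq annotation of GRCm38.p6. Of the troponin genes, 6 form pairs of a troponin I and a troponin T gene. Tnni1 (chromosome 1, 135783033 to 135810989) and Tnnt2 (chromosome 1, 135836315 to 135852268) are 25.3 kb apart. Tnnt1 (chromosome 7, 4504569 to 4515975) and Tnni3 (chromosome 7, 4518305 to 4522718) are 2.33 kb apart. Tnni2 (chromosome 7, 142441816 to 142444410) and Tnnt3 (chromosome 7, 142498771 to 142516213) are 54.4 kb apart. The unpaired genes are Actc1 (chromosome 2, 114047282 to 114052875), Tnnc2 (chromosome 2, 164777161 to 164779734), Acta1 (chromosome 8, 123891758 to 123894775) and Tnnc1 (chromosome 14, 31208312 to 31211729).

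The sequences upstream of both actin genes are shown because they carry a motif that the troponin windows searched lack. They are the 250 bases before the start site, from RefSeq on GRCm38.p6, and both genes are on the minus strand, so each is written in the gene's own direction. Capitals mark the CArG box, the site of serum response factor, a regulator of muscle actin genes. It was searched only as CCWWWWWWGG, where W is A or T.
Actc1, chr2:114052876-114053125: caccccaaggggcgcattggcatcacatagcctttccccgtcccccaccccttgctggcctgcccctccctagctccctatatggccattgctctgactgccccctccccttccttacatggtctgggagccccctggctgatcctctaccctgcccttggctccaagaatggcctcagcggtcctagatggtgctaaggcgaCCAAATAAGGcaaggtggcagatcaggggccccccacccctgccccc
Acta1, chr8:123894776-123895025: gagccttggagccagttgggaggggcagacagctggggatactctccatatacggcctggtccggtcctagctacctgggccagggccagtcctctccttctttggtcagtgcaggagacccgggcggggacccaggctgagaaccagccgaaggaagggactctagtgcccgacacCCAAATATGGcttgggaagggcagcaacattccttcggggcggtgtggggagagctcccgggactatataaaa
The CArG box of Actc1 lay from -47 to -38 and that of Acta1 from -73 to -64, counted from the start site. Of the 10 genes, 8 had a promoter entry, while the fast troponin genes Tnnt3 and Tnni2 had none and were not searched. A CArG box was in 2 of these 8, compared with 1.47% of the 32851 promoter windows of 250 bases searched on both strands. The E-box, CANNTG, was in a window of 7 of the 8 and not in that of Actc1, and 66.2% of all windows held one. The MEF2 box was in 0 of the 8, compared with 0.508% of all windows. The motif TTCNNNGAA, the form that STAT proteins bind, was in 0 of the 8, compared with 7.02%. A match is a match of letters in these windows and does not show that a protein binds there.

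Actc1 was the 1 gene of the 10 called higher in the libraries labelled OsxCre;Stat3fl/fl. The call was by edgeR's quasi-likelihood test adjusted over 15600 genes, with a threshold of 0.05. Its level was 376, 373 and 442 CPM in the OsxCre libraries 1, 2 and 3, and 1256, 1839 and 914 CPM in the libraries labelled OsxCre;Stat3fl/fl. The lowest value with the Stat3fl/fl label was thus above every OsxCre value, and the mean was 3.37-fold higher (397 ± 39.1 compared with 1337 ± 468, SD, n = 3 each). The log2 fold change was 1.75 (SE 0.24, adjusted p = 0.020). Across all genes tested, 0.776% were called higher by the same rule and 1.26% in either direction, so 1 of 10 is read against that share. Leaving out OsxCre library 1 (adjusted p = 0.0967), OsxCre library 2 (0.0691) or OsxCre;Stat3fl/fl library 1 (0.0599) ended the call of Actc1 by edgeR, with log2 fold changes of 1.72, 1.70 and 1.79.

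The other 9 genes missed the adjusted threshold, and 0 of the 10 were called lower by edgeR, by DESeq2 or by limma-voom, beside 0.481% of all genes called lower by edgeR. At an unadjusted p under 0.05, 7 of the 10 were higher, compared with 8.03% of all genes, and 0 were lower, compared with 8.34%. The values of the genotypes did not overlap for 5 of the 10, each of them higher with the Stat3fl/fl label, compared with 10.8% of all genes, and 0 were lower without overlap, compared with 12.2%. The median log2 fold change of the 10 genes was 0.50, beside -0.004 for all genes tested. It was 0.31 without OsxCre;Stat3fl/fl library 2, and 0.12 with no scaling of the libraries, which put all genes at -0.38. The log2 fold change was above 0 for 9 of the 10, although Tnnc2 and Acta1 turned to -0.02 and -0.09 on unscaled counts. DESeq2's Wald test called 5 of the 10 higher, adding Tnnt3, Tnni1, Tnni2 and Tnnc1, beside 307 of all 15600 genes. Without a filter on low counts, edgeR called 3 of the 10 higher, adding Tnni1 and Tnnc1, beside 250 of all 28016 genes. In bulk tissue, more muscle cells and more RNA per muscle cell cannot be told apart.

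**Figure D1:**
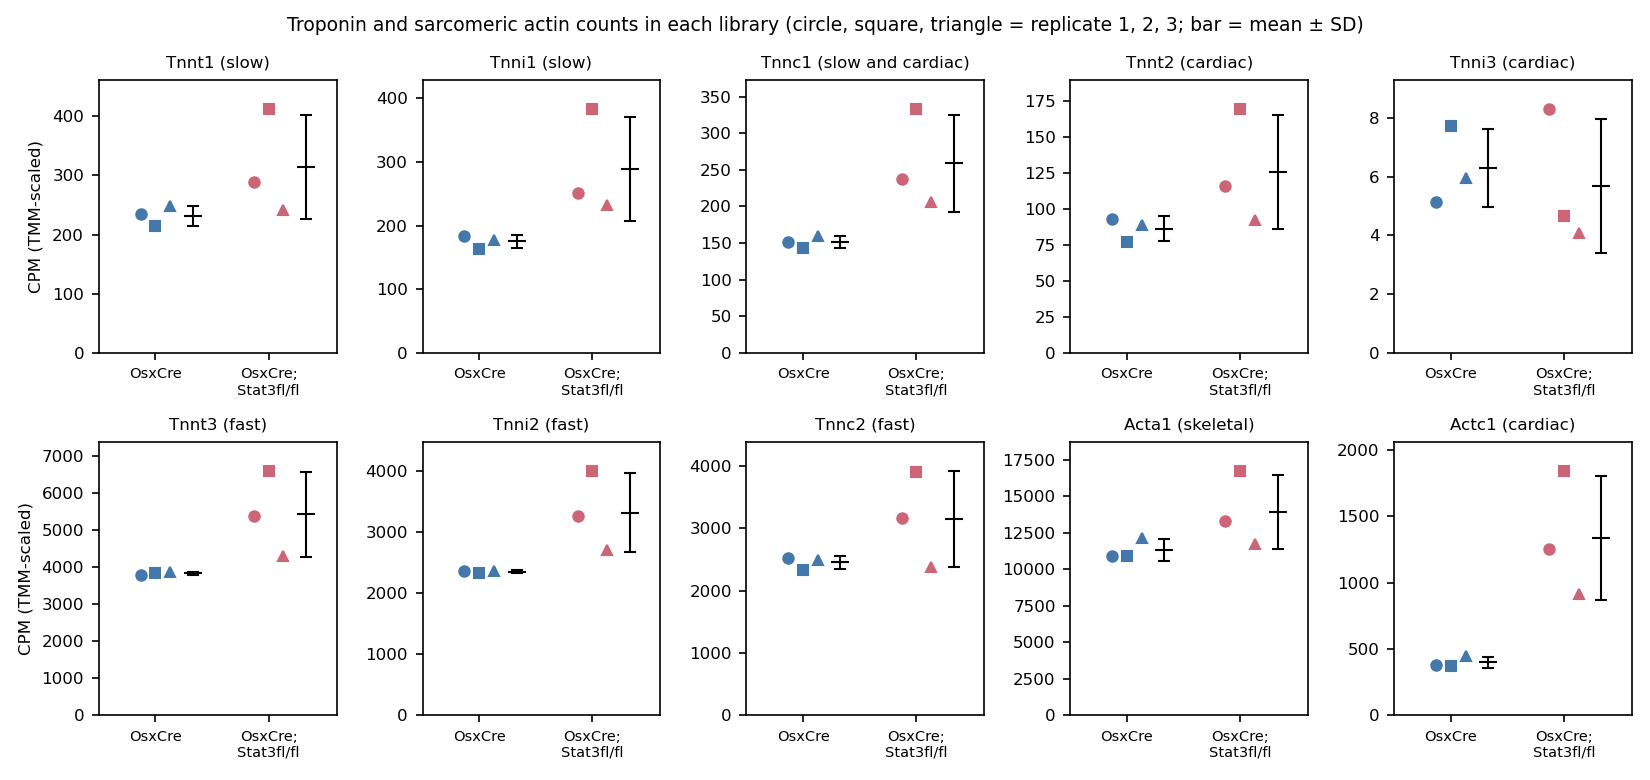
Level of the 10 genes in each library, 1 panel per gene with its own axis from 0, in CPM scaled by TMM, with libraries 1, 2 and 3 as circle, square and triangle and bars of the mean ± SD. Actc1 lies at 373 to 442 CPM in OsxCre (blue) and at 914 to 1839 CPM with the Stat3fl/fl label (red), and library 2 with the label is highest in every panel but that of Tnni3.

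The spread came from the libraries labelled OsxCre;Stat3fl/fl. Library 2 of that group had the highest value of all 6 libraries for 9 of the 10 genes, with Tnni3 as the exception. Library 3 had the lowest value of its group for all 10. The 10 genes together took 2.09%, 2.12% and 2.17% of the counts in the OsxCre libraries and 2.77%, 3.19% and 2.28% in those labelled OsxCre;Stat3fl/fl. The OsxCre libraries were thus close to each other, while the others ranged from just above them to well above.

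Of the troponin T genes, the fast isoform Tnnt3 was by far the most counted. Tnnt3 stood at 3785, 3827 and 3869 CPM in OsxCre and at 5382, 6572 and 4285 CPM with the Stat3fl/fl label, without overlap. Its log2 fold change was 0.50 (SE 0.16), with an unadjusted p of 0.0145 and an adjusted p of 0.180 (edgeR), so the call was missed. The slow isoform Tnnt1 was at 234, 214 and 248 CPM in OsxCre and at 289, 412 and 242 CPM in the other libraries, and library 3 with the Stat3fl/fl label lay inside the OsxCre range. The fold change of Tnnt1 was 0.44 on the log2 scale (SE 0.18, adjusted p = 0.286, edgeR). The cardiac and immature isoform Tnnt2 had 93.1, 76.8 and 88.7 CPM in OsxCre and 116, 169 and 91.9 CPM with the label, again with library 3 inside the OsxCre range. That of Tnnt2 was 0.54 (SE 0.20, adjusted p = 0.243, edgeR). Without OsxCre;Stat3fl/fl library 2 the log2 fold changes were 0.34 for Tnnt3, 0.20 for Tnnt1 and 0.28 for Tnnt2, the lowest values when each library was left out in turn.

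Of the troponin I genes, Tnni2 of fast fibres had 2366, 2329 and 2361 CPM in OsxCre and 3260, 3993 and 2703 CPM with the Stat3fl/fl label. These values did not overlap, and the log2 fold change was 0.50 (SE 0.15, adjusted p = 0.159, edgeR). The slow isoform Tnni1 had 184, 163 and 178 CPM in OsxCre and 252, 383 and 232 CPM in the other libraries, again without overlap. Its log2 fold change of 0.72 (SE 0.18, adjusted p = 0.112, edgeR) was the second largest among the troponins. Tnni3, the isoform of the heart, was near the bottom of the range, with 54, 78 and 71 counts in OsxCre and 69, 38 and 35 counts with the label. Tnni3 was at 5.14, 7.73 and 5.96 CPM compared with 8.29, 4.66 and 4.09 CPM, and these overlapped. The log2 fold change of Tnni3 was -0.14 (SE 0.31, adjusted p = 0.870, edgeR), which turned to 0.03 without OsxCre library 2 and to 0.05 without OsxCre;Stat3fl/fl library 3.

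Of the troponin C genes, the slow and cardiac isoform Tnnc1 had the smallest p after Actc1. Tnnc1 stood at 152, 143 and 160 CPM in OsxCre and at 238, 333 and 206 CPM with the Stat3fl/fl label, without overlap. Its log2 fold change was 0.77 (SE 0.17), with an unadjusted p of 0.00174 and an adjusted p of 0.0798 (edgeR). The fast isoform Tnnc2 had 2526, 2340 and 2495 CPM in OsxCre and 3175, 3904 and 2373 CPM in the others, which overlapped because of library 3. Its log2 fold change was 0.36 (SE 0.18, adjusted p = 0.356, edgeR), with the sign turned without scaling, as given above, and was 0.18 without OsxCre;Stat3fl/fl library 2. The slow gene thus had the larger fold change of the pair, and the ratio of the pair is tested further on.

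Acta1, the actin of mature skeletal muscle, was the most abundant of the 10 genes. Acta1 was at 10918, 10871 and 12158 CPM in OsxCre and at 13284, 16686 and 11748 CPM with the Stat3fl/fl label. Library 3 with the label was below the highest OsxCre library, and the log2 fold change was 0.30 (SE 0.16, adjusted p = 0.392, edgeR), or 0.15 without OsxCre;Stat3fl/fl library 2. Acta1 and Actc1 encode nearly identical proteins, but their longest coding transcripts shared 0 of 1397 windows of 50 bases and 9 of 1422 windows of 25 bases (0.633%). Stretches identical between the transcripts were thus few, although how the counting treated reads that match several genes is not given in the sources used here.

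**Figure D2:**
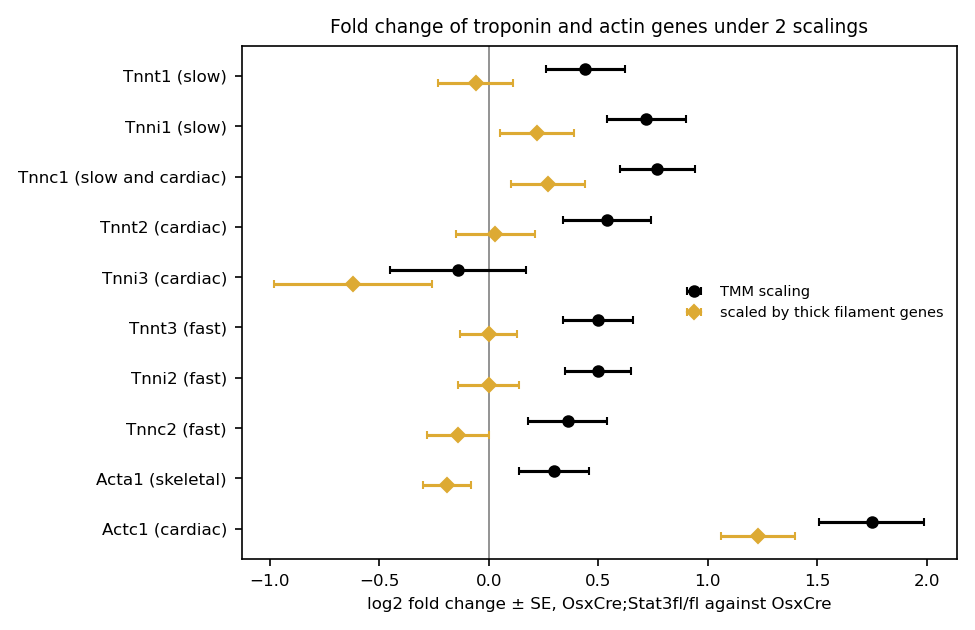
Fold change of each gene on a log2 scale, OsxCre;Stat3fl/fl against OsxCre, under TMM scaling and when each library was scaled by the counts of the thick filament, Z-disc and titin genes, with bars of 1 SE. Actc1 stands at 1.75 and 1.23, while Tnnt3 and Tnni2 move from 0.50 each to 0.00 and Acta1 from 0.30 to -0.19.

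Levels of different genes were compared per kb of the longest coding transcript. In OsxCre the order was Acta1 at 7825 ± 505 CPM per kb, then Tnnt3 at 3547 ± 38.9, Tnnc2 at 3505 ± 142 and Tnni2 at 3062 ± 25.7 (mean ± SD, n = 3). Tnnt3 and Tnnc2 were neighbours whose values overlapped. A gap followed, since Actc1 at 270 ± 26.5, Tnnt1 at 219 ± 16.3, Tnnc1 at 210 ± 11.6 and Tnni1 at 152 ± 9.7 CPM per kb were all far below the fast isoforms. Tnnt1 and Tnnc1 overlapped. Tnnt2 at 78.6 ± 7.66 and Tnni3 at 6.88 ± 1.45 CPM per kb closed the order. With the Stat3fl/fl label the same genes came first, at 9617 ± 1748 for Acta1, 5017 ± 1060 for Tnnt3, 4501 ± 1094 for Tnnc2 and 4321 ± 843 CPM per kb for Tnni2. The 3 fast troponins overlapped in that group. Actc1 followed at 907 ± 317, then Tnnc1 at 359 ± 91.6, Tnnt1 at 297 ± 83.1 and Tnni1 at 251 ± 71.2 CPM per kb, of which Tnnc1 overlapped Tnnt1 and Tnnt1 overlapped Tnni1. Tnnt2 at 114 ± 35.7 and Tnni3 at 6.23 ± 2.49 CPM per kb were again last.

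The fast isoform made up most of each troponin subunit in both genotypes. Per kb, Tnnt3 was 91.9 to 92.9% of troponin T in OsxCre and 91.8 to 92.9% with the Stat3fl/fl label. Tnni2 was 94.9 to 95.3% of troponin I compared with 93.9 to 94.9%, and Tnni3 stayed at 0.266% or less in every library. Tnnc2 was 94.2 to 94.5% of troponin C compared with 92.2 to 93.2%. Among the actins, Actc1 was 3.27, 3.26 and 3.45% of the sum of Acta1 and Actc1 in OsxCre and 8.50, 9.76 and 7.10% in the libraries labelled OsxCre;Stat3fl/fl. The share of Actc1 was thus above the OsxCre values in every library with the label.

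**Figure D3:**
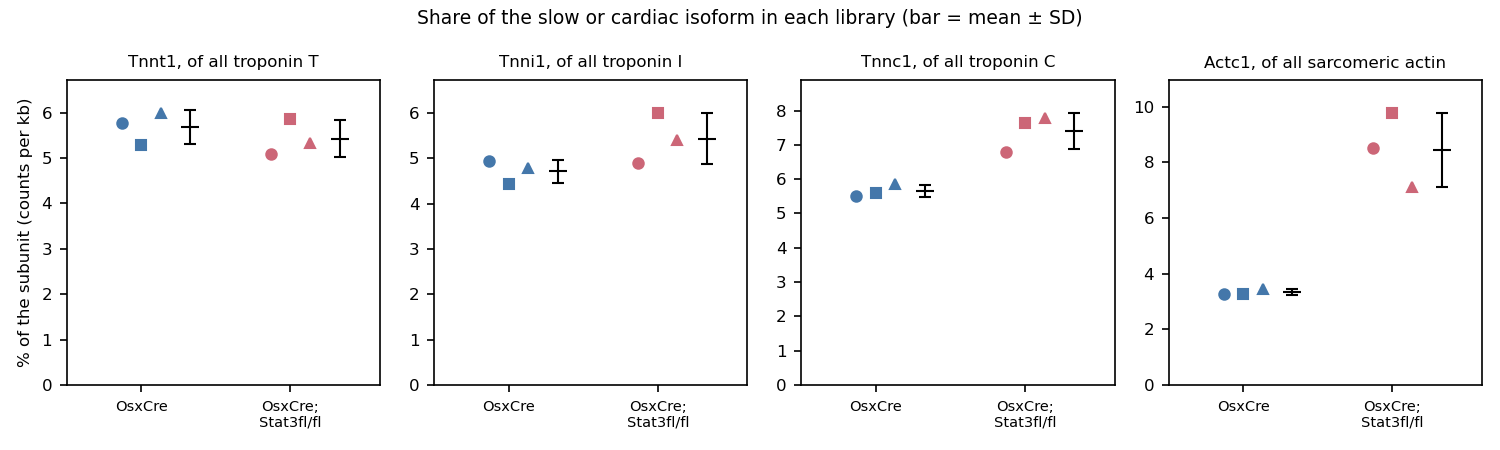
Share of Tnnt1, Tnni1, Tnnc1 and Actc1 in their subunit, in percent of the subunit's counts per kb, with 1 point per library (circle, square and triangle for libraries 1, 2 and 3) and bars of the mean ± SD, on axes from 0. Tnnt1 overlaps between genotypes, Tnnc1 goes from 5.52 to 5.85% in OsxCre to between 6.79 and 7.77% with the Stat3fl/fl label, and Actc1 from 3.26 to 3.45% to between 7.10 and 9.76%.

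A ratio of a pair of isoforms within a library does not depend on the scaling of libraries. Of the 4 ratios tested, those of Acta1 to Actc1 and of Tnnc2 to Tnnc1 did not overlap between genotypes. Acta1 per kb was 29.6, 29.7 and 28.0 times Actc1 in OsxCre and 10.8, 9.24 and 13.1 times Actc1 with the Stat3fl/fl label, a log2 difference of -1.41 (SE 0.15). Tnnc2 was 17.1, 16.9 and 16.1 times Tnnc1 compared with 13.7, 12.1 and 11.9 times, a log2 difference of -0.41 (SE 0.07). For both, p was 0.1 in a two-sided exact permutation test, the smallest that 3 libraries against 3 allow, and 0.2 after adjustment over the 4 ratios, so the design cannot reach p under 0.05. The ratio of Tnni2 to Tnni1 was 19.2, 21.4 and 19.9 compared with 19.4, 15.6 and 17.5, with overlap and a log2 difference of -0.21 (SE 0.10, exact permutation p = 0.2, adjusted 0.267). That of Tnnt3 to Tnnt1 was 15.9, 17.6 and 15.3 compared with 18.3, 15.7 and 17.4, with overlap and a log2 difference of 0.07 (SE 0.09, exact permutation p = 0.5, adjusted 0.5). Whether the 4 differences differ from each other was not tested.

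The sums of the subunits per kb were set against each other as a description. Relative to the 3 troponin T genes together, troponin I was 0.829 to 0.851 in OsxCre and 0.833 to 0.870 with the Stat3fl/fl label. Troponin C was 0.928 to 1.00 compared with 0.858 to 0.910, and the sarcomeric actins were 2.04 to 2.23 compared with 1.87 to 2.04. The ranges of troponin C did not overlap, and these sums were not tested.

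The other genes of the sarcomere were read from gene lists beside the 10. In the list of 22 thick filament, Z-disc and titin genes, the summed level was 18193 to 21977 CPM in OsxCre and 23229 to 34151 CPM with the Stat3fl/fl label, without overlap. Of its 21 genes tested, 1 was called higher by edgeR and 0 lower, 12 were higher and 1 lower at an unadjusted p under 0.05, and the median log2 fold change was 0.41. DESeq2 called 9 higher and 1 lower. Csrp3, a Z-disc protein of striated muscle, was the gene called, at 165, 162 and 145 CPM compared with 355, 494 and 321 CPM, with a log2 fold change of 1.31 (SE 0.16, adjusted p = 0.0154, edgeR). Leaving out OsxCre library 1 (adjusted p = 0.0812) or OsxCre;Stat3fl/fl library 3 (0.0570) ended the call of Csrp3, and leaving out OsxCre library 3 added a call of Mybpc2, a fast myosin-binding protein, at 0.0194 (edgeR). Mylpf, the fast regulatory light chain, had a log2 fold change of 0.65 (SE 0.17, adjusted p = 0.121, edgeR), and its values did not overlap.

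When each library was scaled by the summed counts of that list, in place of TMM, Actc1 had 19.0, 20.5 and 20.1 counts per 1000 list counts in OsxCre and 47.0, 53.9 and 39.4 with the Stat3fl/fl label. The log2 fold change of Actc1 on this scale was 1.23 (SE 0.17, adjusted p = 0.000596, edgeR), and the values did not overlap. Tnnt3 had 191, 210 and 176 compared with 201, 192 and 184, and Tnni2 had 120, 128 and 107 compared with 122, 117 and 116, so both overlapped with log2 fold changes of 0.00. Tnni1 (0.22, adjusted p = 0.304, edgeR) and Tnnc1 (0.27, adjusted p = 0.197, edgeR) were higher without overlap. Acta1 was lower without overlap, at 552, 598 and 553 compared with 497, 489 and 506 counts per 1000 list counts, with a log2 fold change of -0.19 (adjusted p = 0.172, edgeR). This scaling was chosen after the data were seen, and it moved the median log2 fold change of all genes to -0.47. Values on it are thus relative to the sum of that list and not to the whole library. Mylpf alone had 6959 of the 19796 CPM of that sum in OsxCre library 1. In OsxCre;Stat3fl/fl library 2 it had 13047 of 34151 CPM.

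The list of thin filament partners, with 12 genes tested, was centred near all genes. The median of the log2 fold changes was 0.00, and 0 genes were called in either direction by edgeR or limma-voom, 3 higher and 0 lower at an unadjusted p under 0.05, and 3 called higher by DESeq2. Tpm1, a tropomyosin of fast fibres, had 3093, 2964 and 3159 CPM in OsxCre and 4399, 5394 and 3523 CPM with the Stat3fl/fl label, without overlap, and its log2 fold change was 0.53 (SE 0.16, adjusted p = 0.161, edgeR). Tpm2, the other major skeletal tropomyosin, was at 0.26 (SE 0.18, adjusted p = 0.511, edgeR), with overlap, and turned to -0.12 without scaling. Neb, the gene of nebulin that runs along the thin filament, was at 0.45 (adjusted p = 0.189, edgeR). Lmod2, a leiomodin of striated muscle that acts at the pointed end of actin, was at 0.66 (adjusted p = 0.146, edgeR). Of the 12 genes tested, 6 were above 0. The rest were Klhl41 (-0.30), Lmod3 (-0.24), Tmod1 (-0.13), Tmod4 (-0.08), Tpm3 (-0.06) and Cfl2 (-0.05). The summed level of the list was 8065 to 8464 CPM compared with 8436 to 12519 CPM, which overlapped.

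Fibre type lists showed calls in opposite directions on single genes. Of 10 adult fast fibre genes, 0 were called higher and 1 lower by edgeR, 7 were higher and 1 lower at an unadjusted p under 0.05, the median log2 fold change was 0.56, and DESeq2 called 5 higher. Myh4, the myosin heavy chain of the fastest fibres, fell from 420, 411 and 478 CPM in OsxCre to 30.6, 39.1 and 37.3 CPM, with a log2 fold change of -3.61 (SE 0.12, adjusted p = 3.87e-05, edgeR), and was called without each library in turn. Of 9 slow fibre genes tested, 0 were called in either direction by edgeR or limma-voom, 3 were higher and 0 lower at an unadjusted p under 0.05, DESeq2 called 2 higher, and the median was 0.21. Of 8 developmental muscle genes tested, 1 was called higher and 0 lower by edgeR, 2 were higher and 0 lower at an unadjusted p under 0.05, DESeq2 called 2 higher and 0 lower, and the median was 0.14.

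Myh3, the embryonic myosin heavy chain of developing muscle, was the developmental gene called higher, at 345, 298 and 382 CPM in OsxCre and 1000, 1555 and 810 CPM with the Stat3fl/fl label. Its log2 fold change was 1.71 (SE 0.23, adjusted p = 0.0204, edgeR), beside 1.75 for Actc1. The call of Myh3 ended without OsxCre library 1 (adjusted p = 0.0967), OsxCre library 2 (0.0690), OsxCre;Stat3fl/fl library 1 (0.0565) or OsxCre;Stat3fl/fl library 3 (0.0580). Myh8, the perinatal heavy chain, was at 0.58 (adjusted p = 0.142, edgeR), without overlap between genotypes. Of the 8 developmental muscle genes tested, 5 were above 0, including Ncam1 (0.26), Myog (0.24) and Cdh15 (0.05). Below 0 were Myod1 (-0.05), Pax7 (-0.12) and Chrng (-0.26). The 10 muscle regulator genes tested had a median of -0.07, with 0 called by edgeR, DESeq2 or limma-voom, and 0 higher and 1 lower at an unadjusted p under 0.05.

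**Figure D4:**
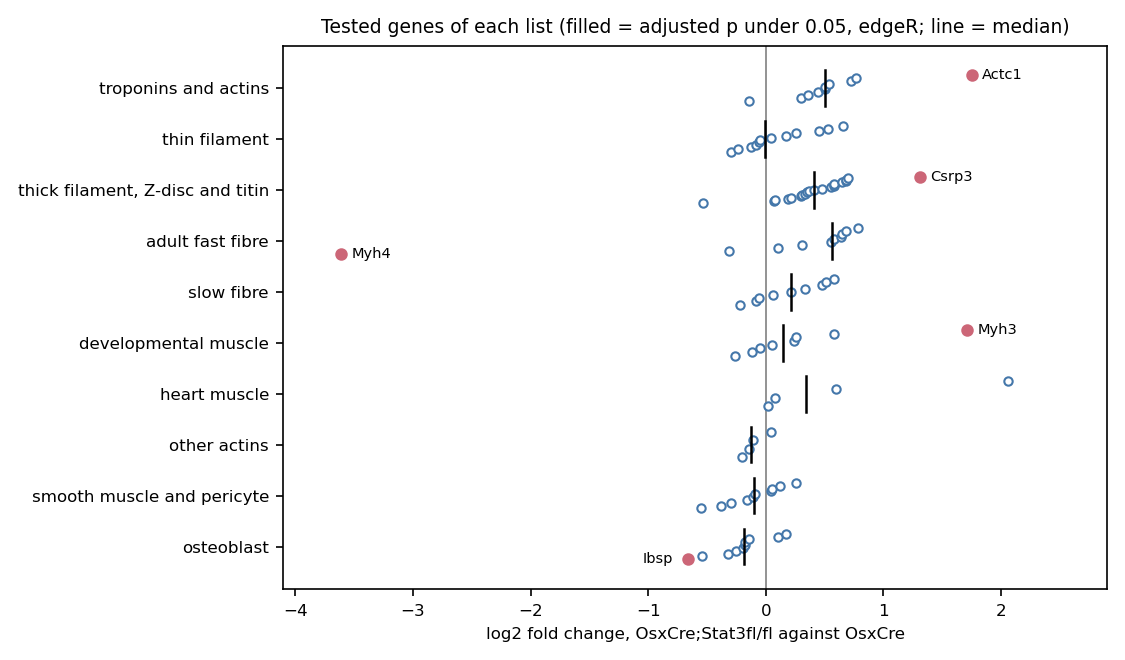
Log2 fold change of every tested gene of the troponins and actins and of 9 other lists, OsxCre;Stat3fl/fl against OsxCre under TMM scaling, with filled points for genes called by edgeR and a line at each median. The medians are 0.50 for the troponins and actins, 0.41 for the thick filament list, 0.00 for the thin filament list and -0.19 for the osteoblast list, and the points called are Actc1, Csrp3, Myh3, Myh4 and Ibsp.

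Markers of other sources of these genes were read beside them. Of 10 heart muscle markers, 4 passed the filter on low counts and 0 were called by edgeR, with 1 higher at an unadjusted p under 0.05 and 1 called higher by DESeq2. Their summed level was 273 to 350 CPM in OsxCre and 401 to 514 CPM with the Stat3fl/fl label, without overlap, and most of it was Sln, sarcolipin, which skeletal muscle also makes. The heart transcription factor Nkx2-5 was at 0 counts in all 6 libraries. Myh6, the atrial myosin heavy chain, was at 3.52, 5.25 and 5.46 CPM in OsxCre and at 4.32, 52.5 and 2.92 CPM in the others, so OsxCre;Stat3fl/fl library 2 stood apart. Without that library the log2 fold change of Myh6 was -0.38 in place of 2.06, while that of Actc1 was 1.46 in place of 1.75.

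The non-sarcomeric actins had log2 fold changes near or below 0. Actb, the main cytoplasmic actin, was at 1438, 1379 and 1337 CPM in OsxCre and at 1308, 1184 and 1116 CPM with the Stat3fl/fl label, without overlap, with a log2 fold change of -0.20 (SE 0.10, adjusted p = 0.355, edgeR). Actg1, the other cytoplasmic actin, was at -0.14 (adjusted p = 0.516, edgeR), and Acta2 of smooth muscle was at 0.04 (adjusted p = 0.940, edgeR), a value that turned to -0.34 without scaling. Of the 4 genes of this list 0 were called by edgeR, DESeq2 or limma-voom, and 0 passed an unadjusted p under 0.05. With no scaling of the libraries, edgeR called Actb (-0.58, adjusted p = 0.0139) and Actg1 (-0.51, adjusted p = 0.0164) lower. With scaling by thick filament genes, edgeR also called both lower (-0.67, adjusted p = 0.0239, and -0.60, adjusted p = 0.0420). These calls stand beside a shift of all genes. Without scaling, 5451 of all 15600 genes were called lower, around a median log2 fold change of -0.38. Scaling by thick filament genes put 2296 genes lower, around a median of -0.47. The smooth muscle and pericyte list, at 2503 to 2712 CPM compared with 2370 to 3198 CPM, overlapped.

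The osteoblast list was at 26330 to 34899 CPM compared with 23707 to 29968 CPM, also with overlap. Of its 10 genes, 1 was called lower and 0 higher by edgeR, 2 were lower and 0 higher at an unadjusted p under 0.05, DESeq2 called 2 lower and 0 higher, and the median log2 fold change was -0.19. Ibsp, bone sialoprotein of the mineralizing matrix, fell from 1017, 1060 and 932 CPM in OsxCre to 610, 663 and 627 CPM with the Stat3fl/fl label, a log2 fold change of -0.66 (SE 0.09, adjusted p = 0.0213, edgeR). The call of Ibsp ended without OsxCre library 1 (adjusted p = 0.0967), OsxCre library 2 (0.0927), OsxCre;Stat3fl/fl library 1 (0.0777) or OsxCre;Stat3fl/fl library 3 (0.105). Alpl, the alkaline phosphatase of osteoblasts, was at 278, 323 and 248 CPM compared with 199, 189 and 194 CPM, without overlap, and its log2 fold change of -0.54 (SE 0.10, adjusted p = 0.0578, edgeR) missed the threshold, which it passed without OsxCre library 3 (0.0429). Skin epidermis (9.4 to 14.4 compared with 13.5 to 20.4 CPM), brain and meninges (934 to 1439 compared with 876 to 1514 CPM) and chondrocyte markers (1832 to 3138 compared with 2777 to 3540 CPM) overlapped as well. Erythroid markers were at 2231 to 3777 CPM in OsxCre and at 1173 to 2083 CPM with the Stat3fl/fl label, without overlap, and their part in the levels of the 10 genes was not tested.

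Genes most like each troponin T isoform were read from the correlation of log2 CPM over the 6 libraries among 10358 genes of at least 10 CPM, as a description. Tnnt3 was most like Tpm1 (Pearson's r 0.9961), Polrmt (0.9903) and Ckm (0.9903), of which Ckm is the creatine kinase of muscle. Tnnt1 was most like Mrps5 (0.9959), Oxa1l (0.989) and Myoz1 (0.9861), and Tnnt2 was most like Lrtm1 (0.9927), 2010107E04Rik (0.9841) and Mrps5 (0.9814). The 6 libraries differed in genotype and in depth, and 39 to 58 genes had an r above 0.95 with each isoform.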

How the data were processed

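RNA was prepared from the parietal bone of OsxCre and OsxCre;Stat3fl/fl newborn littermates, with 3 libraries per genotype. The authors deposited 1 file per library with raw, whole-number counts for 44556 gene symbols. The submitters' processing notes name HISAT2 and GRCm38, whereas the study's methods describe TopHat, mm9 and FPKM values compared with Cuffdiff. The program that counted the reads is not given in the sources used here. The labels describe polyA RNA and the methods total RNA. Libraries held 8193651 to 12080044 counts, and 3 counts, taken as the floor, correspond to 0.248 to 0.366 CPM (counting error only).

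The filter filterByExpr, with a count of at least 10 and a total of at least 15, left 15600 genes. Libraries were scaled by TMM, with factors of 0.932 to 1.044, and the genotypes were compared with edgeR 4.0.16 (R 4.3.3) by its two-sided quasi-likelihood test. P-values were adjusted by Benjamini and Hochberg's method over all genes tested, with calls at an adjusted p under 0.05. Values are TMM-scaled CPM, as mean ± SD. Levels per kb used the longest coding transcript of each gene in GENCODE vM1. Ratios of isoforms were compared by the exact permutation test. The methods give 3 mice per genotype, but the labels do not tie libraries to animals, so p-values measure the spread between these libraries. No pair of libraries of a genotype agreed within sampling noise (chi-square per degree of freedom 7.51 to 15.6).

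The genes named are the 10 genes, Stat3, in each list the 3 genes with the most counts and the 2 with the smallest p, and the 3 genes most like each troponin T gene; of these, not all are printed. Nkx2-5 was named after its values were seen, as were genes whose call a left-out library changed. The same holds for genes of the thin filament and developmental muscle lists that fall outside these rules. Xist was read to check the labels. The genes and lists were chosen with earlier results of these data known. The adult fast and slow fibre lists share genes with the thick and thin filament lists. Alternatives were scaling by upper quartile, by library totals, by DESeq2's size factors or not at all, TMM without muscle genes, no filter, at least 1 CPM in 3 libraries, DESeq2 1.42.0, limma-voom (limma 3.58.1), the replicate number as a block, leaving out each library, and, for ratios, no division by length. Scaling by thick filament genes was added after the data were seen. Promoters and positions came from RefSeq tables of GRCm38.p6.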

Additional observations from a re-analysis of the deposited data

How the results depend on the processing

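Actc1 kept its direction in every alternative run, with log2 fold changes of 1.23 to 1.96, and its call in all but the replicate block and 3 of the 6 fits without a library. The 10 genes called higher numbered 3 without a filter, 5 with DESeq2, 0 with the replicate block and 0 to 1 without each library. No gene of the 10 was called lower in any alternative. Same-numbered libraries deviated with correlations of -0.1015, -0.5182 and -0.085, which gave no sign that the numbers pair the samples. These are deviations from means of 3 libraries, so they cannot exclude a pairing. With the block, Actc1 was at 1.70 (adjusted p = 0.106, edgeR), Csrp3 at 1.28 (0.0597), Myh3 at 1.67 (0.122) and Ibsp at -0.66 (0.122). In the balanced design a block cannot move the mean log2 difference of a ratio, which was -1.41 for Acta1 to Actc1 with and without it.

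Over all genes, the number lower was 75, compared with 114 with library totals, 5451 without scaling, 178 without a filter, 231 with DESeq2, 1 with the block, 2296 when scaled by thick filament genes and 5 to 36 without each library. The number higher was 121, compared with 250 without a filter, 307 with DESeq2, 0 with the block, 75 when scaled by thick filament genes and 7 to 67 without each library. Without scaling the median log2 fold change of all genes was -0.38. Of the muscle list genes, 8 were called lower without scaling, 2 with DESeq2 and 11 when scaled by thick filament genes, and 8 were called higher without a filter, 17 with DESeq2, 0 with the block and 0 to 3 without each library.

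Signs turned in 26 of the values recomputed, 549 stayed on their side of the threshold, 37 passed it newly and 17 were lost. Without scaling, log2 fold changes turned to -0.02 (Tnnc2), -0.09 (Acta1), -0.12 (Tpm2), -0.28 (Atp2a1), -0.11 (Ncam1), -0.34 (Acta2) and -0.26 (Stat3). Scaled by thick filament genes, they turned to -0.06 (Tnnt1), -0.14 (Tnnc2), -0.19 (Acta1), -0.24 (Tpm2), -0.03 (Neb), -0.06 (Myl1), -0.39 (Atp2a1), -0.22 (Ncam1), -0.44 (Acta2) and -0.34 (Stat3). With library totals Acta2 was at -0.02. Leaving out a library turned Tnni3 (-0.52 to 0.05), Tpm3 (-0.16 to 0.01), Atp2a1 (-0.09 to 0.20), Myh6 (-0.38 to 2.58) and Acta2 (-0.08 to 0.20). None of these was past the threshold, and their cause was not tested. The ratios of Acta1 to Actc1 ranged from -1.54 to -1.29 and those of Tnnc2 to Tnnc1 from -0.48 to -0.37 without each library. Tnni3 had 35 to 78 counts per library and an SE of 0.31.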
